A study of Mus musculus with 6 samples.

Results

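The genes described here make glucose in the kidney or carry glucose and lactate across the proximal tubule cell. They are Glud1, Pcx, Pck1, Fbp1 and G6pc, which encode enzymes, and Slc2a2, Slc5a2 and Slc5a12, which encode carriers. They were chosen by gene symbol, with earlier results of these data known, and all 8 are among the 7373 genes of the deposited table. RNA was sequenced from whole kidneys of adult males of the inbred mouse strain FVB/N. The 3 transgenic samples came from mice that overexpress the chaperone CryAB carrying the missense mutation R120G, and the kidneys were taken before heart failure set in. The transgene is driven by the α-myosin heavy chain promoter, which is specific to heart muscle cells and is not directed at the kidney. The 3 control samples came from age-matched male mice of the same strain, for which no other treatment is given. In the deposited table all 6 samples also carry the tag Pre_IRI, which the labels do not explain. Since the labels give no animal numbers, p-values here reflect only how far these samples spread, which may be technical in part.

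The kidney is, with the liver, an organ that releases new glucose into the blood, and it does so in the proximal tubule from lactate, glutamine and glycerol. Carbon from glutamine or lactate enters through glutamate dehydrogenase or pyruvate carboxylase in the mitochondria and is turned into phosphoenolpyruvate by a carboxykinase. It then runs back along the glycolytic steps, with fructose-bisphosphatase and glucose-6-phosphatase in place of the steps that cannot be reversed. The same cells take back the filtered glucose through the sodium-coupled carrier SGLT2 in the brush border, and glucose leaves them towards the blood through GLUT2. Acidosis, fasting and glucocorticoids are known to raise the carboxykinase, and cAMP and insulin are known to act on it and on glucose-6-phosphatase in opposite ways.

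The libraries held between 23.5 and 47.6 M estimated counts over the listed genes. Control 3 had a count of 0 in each of the 178 genes that lie on X or Y, and in no gene elsewhere, so those 178 were left out of the main fit. None of the genes described here lies on X or Y. Control 3 also stood apart in the other genes, at 24.7 on a first principal component with 51.9% of the variance, against -12.5 to 0.71 in the other 5 libraries. Where leaving out control 3 moved a value of the 8 genes much, the value without it is given. Transcripts of the endogenous Cryab gene and of the transgene were not told apart in these counts. Cryab was between 210 and 292 CPM (counts per 1 M counts of the library) in controls and between 178 and 194 CPM in transgenic kidneys. Its log2 fold change of -0.38 ± 0.13 (SE) missed the threshold (edgeR adjusted p = 0.997). Of the 18 proximal tubule markers looked up, 17 were tested, and they added up to between 26177 and 28997 CPM in controls and between 26285 and 29095 CPM in transgenic kidneys. The summed podocyte markers were higher in transgenic kidneys without overlap, at 190 to 231 CPM against 137 to 178 CPM. None of the 6 liver markers looked up was among the 7373 genes, and they were not analysed here. In whole kidney, fewer cells of a type and less RNA per cell cannot be told apart.

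The promoter stretches of Pck1, G6pc, Glud1 and Slc2a2 are shown first, because Pck1, G6pc and Glud1 had their highest and lowest values in the same pair of kidneys and Slc2a2 did not share that pattern. They are the 250 bases before the start site in RefSeq (GRCm38.p6, the assembly that mm10 names), all on the plus strand, at chr2:173152823-173153072, chr11:101367466-101367715, chr14:34310477-34310726 and chr3:28697653-28697902. Capitals mark every match, on either strand, to 5 short words: GTTAAT, part of an HNF1 site, CAAAGT for an HNF4 core, TGACGT for a cAMP response element core, TGTTTAC for a FOXO word and AGAACA, part of a glucocorticoid receptor site.
Pck1: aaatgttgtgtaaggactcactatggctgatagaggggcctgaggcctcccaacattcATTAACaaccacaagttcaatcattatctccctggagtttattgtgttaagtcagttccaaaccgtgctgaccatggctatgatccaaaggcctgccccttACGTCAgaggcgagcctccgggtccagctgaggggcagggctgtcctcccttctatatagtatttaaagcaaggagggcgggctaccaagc
G6pc: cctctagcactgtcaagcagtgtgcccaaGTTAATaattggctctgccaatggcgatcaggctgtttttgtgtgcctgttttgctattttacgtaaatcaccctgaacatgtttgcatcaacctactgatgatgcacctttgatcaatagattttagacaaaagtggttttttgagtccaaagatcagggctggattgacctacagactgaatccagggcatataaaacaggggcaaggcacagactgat
Glud1: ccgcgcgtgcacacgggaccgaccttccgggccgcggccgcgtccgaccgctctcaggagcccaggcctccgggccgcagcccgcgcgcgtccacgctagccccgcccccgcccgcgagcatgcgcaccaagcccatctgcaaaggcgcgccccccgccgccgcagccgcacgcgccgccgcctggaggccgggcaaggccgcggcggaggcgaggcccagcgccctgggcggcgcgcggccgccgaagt
Slc2a2: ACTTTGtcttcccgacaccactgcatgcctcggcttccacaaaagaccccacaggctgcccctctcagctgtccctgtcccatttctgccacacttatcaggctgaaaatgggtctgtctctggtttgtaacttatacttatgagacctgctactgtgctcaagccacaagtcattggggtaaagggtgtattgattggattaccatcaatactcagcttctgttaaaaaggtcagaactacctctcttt

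The HNF1 word is in the windows of Pck1 and G6pc but not in that of Glud1, which shares their extremes. It begins 192 bases before the start of Pck1 and 221 bases before that of G6pc. Over the 300 bases that end 50 bases past the start, this word is found in 7.10% of all 32851 RefSeq promoters of that length. The core of the cAMP response element begins 91 bases before the start of Pck1, is found in 7.51% of all promoters, and is in none of the other members' promoters looked at. The HNF4 core stands at the far end of the Slc2a2 window and is found in 14.4% of all promoters. The promoter of Pcx has 2 start sites in the table, and the HNF4 core follows one of them. No match to any of the words was found for Fbp1 and Glud1. The FOXO word, found in 3.65% of all promoters, and the glucocorticoid receptor word, found in 19.0%, were in none of the 7 windows of the 6 genes that could be matched. Slc5a2 and Slc5a12 were not matched. A match is a description of letters and says nothing about binding in these kidneys.

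None of the 8 genes passed the comparison of transgenic with control kidneys. The test called 1 of 7194 genes, Ren1, or 0.0139% (edgeR quasi-likelihood test, Benjamini-Hochberg adjusted p under 0.05 over all genes). The smallest unadjusted p among the 8 was 0.258, that of Slc5a12, while 1.82% of all genes had an unadjusted p under 0.05. Groups overlapped in all 8 genes. Over all genes 5.98% did not overlap, 2.96% with every transgenic kidney above every control and 3.02% with every one below. By point estimate 6 of the 8 were lower and 2 were higher in transgenic kidneys, with a median log2 fold change of -0.11 beside 0.00 for all genes, of which 49.7% lay below 0. Differences larger in size than any of the 8 were found in 9.29% of all genes.

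**Figure D1:**
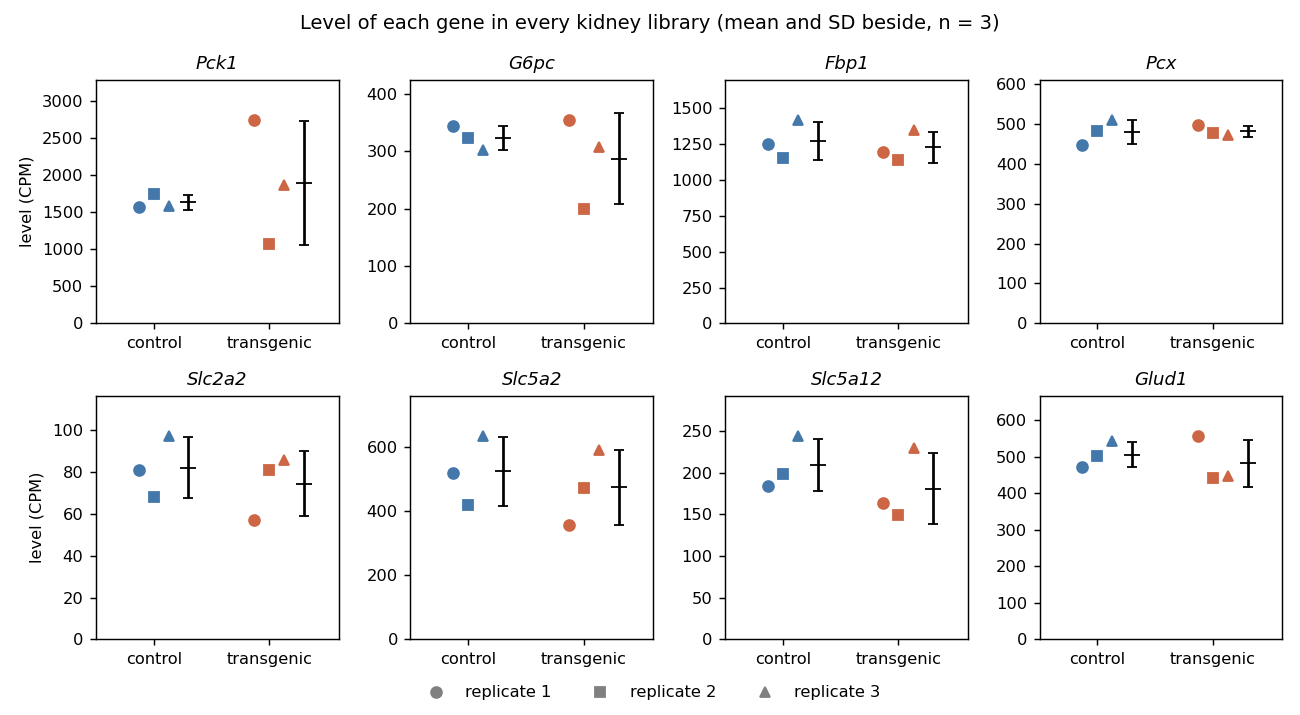
Level of each of the 8 genes in CPM (y axis, from 0) in the 3 control and the 3 transgenic libraries (x axis); marker shapes give the replicate number, and the bar beside the points is the mean with its SD (n = 3). The groups overlap in every panel, and Pck1 spans 1068 to 2738 CPM within the transgenic kidneys.

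Pck1 (gene ID 18534; chromosome 2, 173153073 to 173159274, plus strand, mm10) encodes the cytosolic phosphoenolpyruvate carboxykinase, the regulated entry step of glucose synthesis. Its level was 1572, 1744 and 1578 CPM in controls 1, 2 and 3, and 2738, 1068 and 1868 CPM in transgenic kidneys 1, 2 and 3. The controls lay close together, whereas transgenic kidneys 1 and 3 were above and transgenic kidney 2 below all of them. The means were 1631 ± 97.8 CPM (SD, n = 3) and 1891 ± 835 CPM (SD, n = 3). On the log2 scale transgenic minus control was 0.21 ± 0.28 (SE), with a 95% interval from -0.42 to 0.85 (edgeR adjusted p = 0.997, the value for each of the 8 genes). Between the highest and the lowest transgenic kidney the level differed 2.56-fold, against 1.11-fold between controls; whether this spread differs between genotypes was not tested. The sign rested on single libraries: the log2 fold change was -0.15 without transgenic kidney 1 and 0.50 without transgenic kidney 2.

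G6pc (gene ID 14377; chromosome 11, 101367716 to 101377903, plus strand) encodes the catalytic subunit of glucose-6-phosphatase, which releases free glucose. It stood at 344, 323 and 302 CPM in the controls and at 354, 199 and 307 CPM in the transgenic kidneys. Transgenic kidney 2 was again the lowest library and transgenic kidney 1 the highest, but only the low value lay well outside the control range. Group means were 323 ± 20.6 and 287 ± 79.4 CPM (SD, n = 3 each), a log2 fold change of -0.17 ± 0.18 (SE; 95% interval -0.59 to 0.25). Without transgenic kidney 2 it was 0.03, and without transgenic kidney 1 it was -0.35.

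Fbp1 (gene ID 14121; chromosome 13, 62864753 to 62888298, minus strand) encodes fructose-1,6-bisphosphatase, the step between Pck1 and G6pc. It was at 1251, 1153 and 1414 CPM in the controls and at 1196, 1135 and 1346 CPM in the transgenic kidneys. Its spread was small beside that of Pck1, and control 3 and transgenic kidney 3 were the highest of their groups. Group means were 1273 ± 132 and 1226 ± 108 CPM (SD, n = 3 each), and the log2 fold change was -0.05 ± 0.11 (SE; 95% interval -0.30 to 0.20), and 0.03 without control 3.

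Pcx (gene ID 18563; chromosome 19, 4510472 to 4621752, plus strand) encodes pyruvate carboxylase, which makes oxaloacetate from pyruvate in mitochondria. It had the narrowest range of the 8 genes, at 448, 481 and 508 CPM in the controls and 496, 476 and 471 CPM in the transgenic kidneys. The transgenic values lay inside the control range. With means of 479 ± 30.4 and 481 ± 13.4 CPM (SD, n = 3 each), its log2 fold change of 0.01 ± 0.08 (SE) had a 95% interval from -0.18 to 0.19, which corresponds to a ratio between 0.883 and 1.14. It was -0.04 without control 1, -0.01 without transgenic kidney 1 and 0.05 without control 3.

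Glud1 (gene ID 14661; chromosome 14, 34310727 to 34345033, plus strand) encodes glutamate dehydrogenase, which turns glutamate into α-ketoglutarate and ammonia. It stood at 473, 501 and 542 CPM in the controls and at 556, 441 and 448 CPM in the transgenic kidneys. Transgenic kidney 1 was the highest and transgenic kidney 2 the lowest library, the same order of extremes as for Pck1 and G6pc, over a narrower range. Means of 505 ± 34.8 and 482 ± 64.3 CPM (SD, n = 3 each) gave a log2 fold change of -0.07 ± 0.11 (SE; 95% interval -0.32 to 0.18). It was -0.18 without transgenic kidney 1, -0.01 without transgenic kidney 2, and -0.02 without control 3 or without transgenic kidney 3.

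Slc5a2 (gene ID 246787; chromosome 7, 128265683 to 128272430, plus strand) encodes SGLT2, the main carrier for filtered glucose in the early proximal tubule. It was at 519, 419 and 633 CPM in the controls and at 357, 473 and 590 CPM in the transgenic kidneys. Here transgenic kidney 1 was the lowest library, where Pck1 was highest, and control 3 was the highest. Means were 524 ± 107 and 473 ± 117 CPM (SD, n = 3 each), a log2 fold change of -0.15 ± 0.20 (SE; 95% interval -0.60 to 0.31). It was 0.01 without control 3, 0.02 without transgenic kidney 1, -0.28 without control 2 and -0.34 without transgenic kidney 3. In the GENCODE M21 annotation, 597 exon bases of Slc5a2 are shared with BC017158 on the opposite strand, and whether the counting used strand is not given in the sources used here. BC017158 was between 55.6 and 80.4 CPM.

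Slc2a2 (gene ID 20526; chromosome 3, 28697903 to 28728361, plus strand) encodes GLUT2, which lets glucose out on the blood side of the same cells. It stood at 81.2, 68.1 and 97.1 CPM in the controls and at 56.9, 81.0 and 85.7 CPM in the transgenic kidneys. Its libraries fell in the same order as those of Slc5a2, with transgenic kidney 1 lowest and control 3 highest. Means of 82.1 ± 14.5 and 74.5 ± 15.4 CPM (SD, n = 3 each) gave a log2 fold change of -0.14 ± 0.18 (SE; 95% interval -0.55 to 0.27), 0.02 without transgenic kidney 1 and -0.00 without control 3. It was -0.26 without control 2 and -0.25 without transgenic kidney 3.

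Slc5a12 (gene ID 241612; chromosome 2, 110597299 to 110649345, plus strand) encodes SMCT2, a sodium-coupled carrier of the brush border that takes up lactate, a substrate of glucose synthesis. It was at 184, 199 and 244 CPM in the controls and at 164, 150 and 229 CPM in the transgenic kidneys. Transgenic kidneys 1 and 2 lay below all controls, but transgenic kidney 3 lay above controls 1 and 2. With means of 209 ± 31.3 and 181 ± 42.4 CPM (SD, n = 3 each), the log2 fold change was -0.21 ± 0.17 (SE; 95% interval -0.60 to 0.18). It was below 0 whichever library was left out, from -0.41 without transgenic kidney 3 and -0.29 without control 1 to -0.14 without transgenic kidney 1, -0.09 without transgenic kidney 2 and -0.08 without control 3. With limma voom and sample quality weights it was -0.07.

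**Figure D2:**
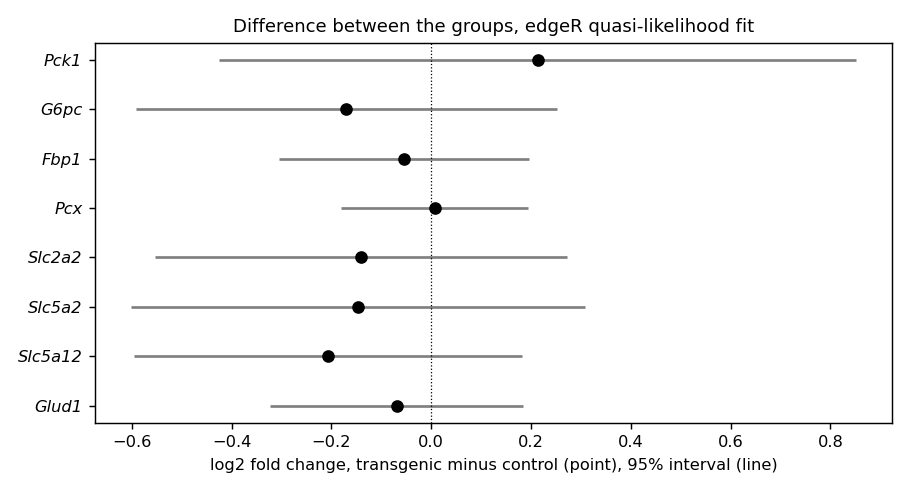
Log2 fold change of each gene, transgenic minus control (points, x axis), with its 95% interval from the edgeR fit (lines); genes are on the y axis. Every interval crosses 0; that of Pck1, from -0.42 to 0.85, is the widest and that of Pcx, from -0.18 to 0.19, the narrowest.

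The intervals bound what these 6 libraries allow. For Pck1 they span ratios from 0.745 to 1.80 and for Slc5a2 from 0.659 to 1.24. For Fbp1, Pcx and Glud1 the bounds were ratios from 0.800 to 1.15, so for these a 1.5-fold difference in either direction lay outside the interval. An exact two-sided permutation test over 3 and 3 samples gives no p smaller than 0.1, so the calls rest on the model fitted across genes.

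The 8 genes varied from library to library to very different degrees. The SD of log2 CPM over the 6 libraries was 0.44 for Pck1, higher than in 98.9% of the 6976 genes with a mean of at least 10 CPM. It was 0.31 for Slc5a2, 0.30 for G6pc, and 0.27 for Slc5a12 and Slc2a2, each above more than 91.5% of those genes. Fbp1 (0.13) and Glud1 (0.14) lay near the median gene (0.13), and Pcx (0.064) varied less than all but 7.91% of them.

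**Figure D3:**
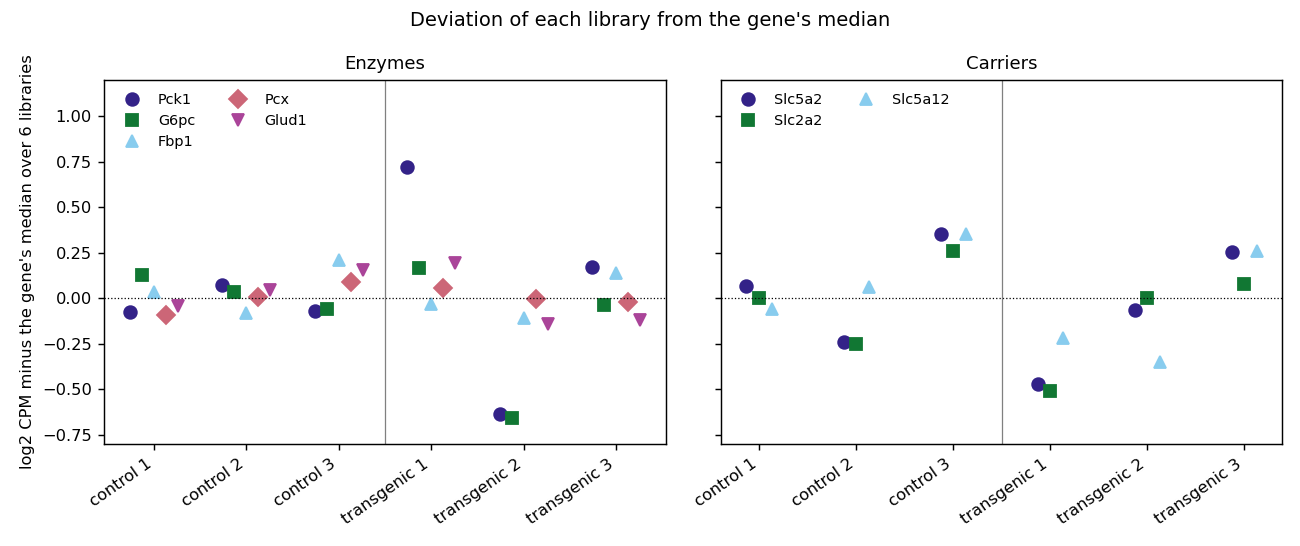
Log2 CPM of each gene minus its median over the 6 libraries (y axis) in each library (x axis; the vertical line parts controls from transgenic kidneys), for the 5 enzymes (left) and the 3 carriers (right). Pck1 and G6pc are both low in transgenic kidney 2, by 0.63 and 0.66, while Slc5a2 and Slc2a2 are both low in transgenic kidney 1, by 0.47 and 0.51.

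The carriers for glucose uptake and exit moved together from library to library. Slc5a2 and Slc2a2 had a Pearson r of 0.97 and a Spearman rho of 1.0 over the 6 libraries, and r was 0.90 after leaving out control 3 and transgenic kidney 1, the libraries farthest from the median of Slc2a2. Within each library the ratio of their CPM stayed between 5.84 and 6.89, a range of 1.18-fold, while each gene alone spanned more than 1.7-fold. These correlations were computed for 28 pairs of genes over the 6 libraries. Genes of the same library share its depth and preparation, so the correlations are given as a description.

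Pck1 and G6pc had an r of 0.82 and a rho of 0.60 over the 6 libraries. This relation rested on transgenic kidneys 1 and 2, and more on transgenic kidney 2. Without both, r was -0.35 (n = 4). It was 0.89 without transgenic kidney 1 alone and 0.573 without transgenic kidney 2 alone. The ratio of Pck1 to G6pc was 4.58, 5.40 and 5.22 in the controls and 7.73, 5.36 and 6.07 in the transgenic kidneys, so transgenic kidney 1 was high in Pck1 beyond its level of G6pc. Pck1 and Slc2a2 had an r of -0.63 and a rho of -0.31, with r = -0.33 without both of those kidneys. This relation rested on transgenic kidney 1, since r was -0.055 without it alone and -0.815 without transgenic kidney 2 alone. The ratio of Pck1 to Slc5a2 was 7.67 in transgenic kidney 1 and between 2.26 and 4.16 in the other 5. Fbp1 had an r of 0.80 with Slc5a2 (rho 0.77), 0.85 with Slc5a12 (rho 0.83) and 0.145 with Pck1 (rho 0.26). Without control 3 and transgenic kidney 3 the first 2 values were 0.25 and 0.32, so they rested on those kidneys.

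In transgenic kidneys 1 and 2, which held the extremes of Pck1, the summed proximal tubule markers stood at 26780 and 26285 CPM, inside the control range. Of the 17 markers tested, 3 (Lrp2, Slc27a2 and Slc13a3, counted after their values were seen) had their highest and lowest values in the same kidneys as Pck1, and 0 had them reversed. One more, Acsm2, shared the extremes of Slc5a2, highest in control 3 and lowest in transgenic kidney 1. The share of all genes with the same extremes is not given here, so these counts are a description only. What part the makeup of the samples had in these patterns was not tested.

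Per length of transcript, Fbp1 and Pck1 were the most abundant of the 8. Dividing CPM by the longest coding transcript in GENCODE M21 gave means over the 6 libraries of 845 CPM per kb for Fbp1 and 662 CPM per kb for Pck1. These neighbours did not differ beyond their spread, since Pck1 ran from 402 to 1029 CPM per kb and Fbp1 from 768 to 956. Slc5a2 followed at 219 CPM per kb, from 157 to 278, below every library of Pck1.

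Glud1, G6pc and Pcx formed a close group at 146, 126 and 116 CPM per kb. The range of G6pc (82.6 to 147 CPM per kb) overlapped those of Glud1 (130 to 164) and Pcx (108 to 123). Every library of Glud1 lay above every library of Pcx, and the range of Glud1 also overlapped that of Slc5a2. Slc5a12 lay below Glud1, G6pc and Pcx at 55.3 CPM per kb, from 42.4 to 69.1. Slc2a2 was the lowest at 14.1, from 10.2 to 17.4. Using the union of exons in place of the longest transcript kept the order (113 CPM per kb for Pcx and 53.8 for Slc5a12).

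**Figure D4:**
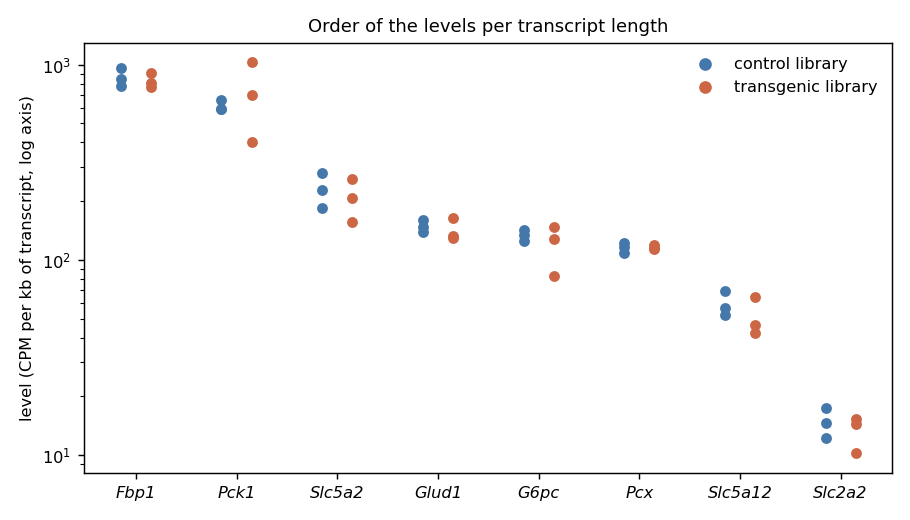
Level of each gene in CPM per kb of its longest coding transcript (y axis, log scale) in each control and transgenic library (points), ordered by mean (x axis). Fbp1 and Pck1 are highest, at means of 845 and 662 CPM per kb, and Slc2a2 is lowest at 14.1, with control and transgenic points mixed in every gene.

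Genes around these 8 in the same pathways did not pass the test either. In 7 further lists, none of the 91 genes tested passed an adjusted p of 0.05 (edgeR), and 3 had an unadjusted p under 0.05. Groups did not overlap in 7 of the 91, or 7.69%, beside 5.98% of all genes. These lists were put together with earlier results of these data known and are described by counts only.

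Of 17 other genes of gluconeogenesis 16 were tested, 11 higher and 5 lower in transgenic kidneys, with a median log2 fold change of 0.01. Pck2, the mitochondrial carboxykinase, was low at 19.7, 20.2 and 19.8 CPM in controls and was at 20.7, 21.9 and 23.1 CPM in transgenic kidneys. Its groups did not overlap, but its log2 fold change of 0.14 ± 0.10 (SE) had an unadjusted p of 0.205. Got1, the cytosolic aspartate aminotransferase, differed by -0.15 ± 0.09 (SE), and by -0.10 without transgenic kidney 1. The malate dehydrogenase genes Mdh1 and Mdh2, the most abundant of the list, both differed by 0.01.

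Among the reversible steps shared with glycolysis, 10 of 11 genes were tested, 8 higher and 2 lower (median 0.06). Pgk1, the other gene of this list, lies on X. Gapdh differed by 0.13 ± 0.13 (SE), but by 0.017 without control 3, its lowest library at 2041 CPM, and by 0.24 without control 1. Aldoc, a minor aldolase, was lower in all 3 transgenic kidneys, at 24.4, 25.3 and 21.7 CPM against 33.2, 26.6 and 29.8 CPM (log2 fold change -0.33 ± 0.12, SE; unadjusted p = 0.0231; adjusted p = 0.997, edgeR).

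The one-way steps of glycolysis and fructose use had 8 of 16 genes tested, 3 higher and 5 lower (median -0.04). Khk, the fructokinase gene, differed by 0.01, Tkfc, which acts after it, by 0.15 ± 0.09 (SE; 0.08 without control 3), and the pyruvate kinase gene Pkm by -0.17 ± 0.09 (SE). The lactate and pyruvate list had 12 of 18 genes tested, 2 higher and 10 lower (median -0.09). Ldhb and Ldhd, lactate dehydrogenase genes, differed by -0.01 and 0.03.

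Slc5a8, which encodes the lactate carrier SMCT1, was lower in all 3 transgenic kidneys and belongs to the same carrier family as Slc5a12. It was at 262, 239 and 284 CPM in controls and at 226, 239 and 217 CPM in transgenic kidneys (log2 fold change -0.20 ± 0.09, SE; adjusted p = 0.997, edgeR). Its groups were parted by less than 1 CPM between control 2 (239.4) and transgenic kidney 2 (238.8). Dld, a subunit of pyruvate dehydrogenase, differed by -0.42 ± 0.22 (SE), and by -0.07 without control 3, where it stood at 469 CPM.

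The list of glutamine and ammonia handling had 14 of 15 genes tested, 7 higher and 7 lower (median 0.00). Slc9a3, the sodium-proton exchanger through which ammonium leaves the cell, was higher in all 3 transgenic kidneys, at 184, 170 and 165 CPM against 147, 164 and 136 CPM (0.21 ± 0.09, SE; adjusted p = 0.997, edgeR). Prodh and Ogdh, the most abundant of the list, differed by -0.00 and -0.03. Prodh2, outside the rule for named genes and chosen after its values were seen, was also without overlap, at 0.19 ± 0.09 (SE).

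Of 18 other sugar carrier genes 10 were tested, 7 higher and 3 lower (median 0.03), all between -0.09 and 0.08. Pdzk1ip1, which encodes MAP17, a partner that SGLT2 needs for transport, was at 722, 661 and 807 CPM in controls and 771, 757 and 769 CPM in transgenic kidneys (0.07 ± 0.09, SE; 0.15 without control 3 and 0.0021 without control 2). It did not share the low value of Slc5a2 in transgenic kidney 1. Slc5a10 and Slc5a11 differed by 0.03 and 0.08; for Slc5a11 this was 0.036 without control 3, 0.051 without transgenic kidney 3 and 0.14 without control 2.

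Transcription factors and signalling genes known to act on gluconeogenesis had 21 of 30 genes tested, 12 higher and 9 lower (median 0.01). Hnf4a, a nuclear receptor of proximal tubule and liver, was at 468, 578 and 493 CPM in controls and 611, 478 and 554 CPM in transgenic kidneys (0.09 ± 0.12, SE). Its difference ran from 0.0076 without transgenic kidney 1 and 0.032 without control 1 to 0.18 without transgenic kidney 2 and 0.19 without control 2. Ppargc1a, a coactivator that raises Pck1 in liver, was at 41.7, 38.6 and 48.1 CPM in controls and 33.6, 39.1 and 38.6 CPM in transgenic kidneys (-0.21 ± 0.11, SE; -0.11 without control 3 and -0.14 without transgenic kidney 1). Its lowest library was transgenic kidney 1, where Pck1 was highest, and Nr3c1 and Klf9 of the same list were also lowest there. Foxo1, Ppara and Insr of that list were highest in transgenic kidney 1 and lowest in transgenic kidney 2, as Pck1 was. Hnf4a, Cebpa and Cebpb were also highest in transgenic kidney 1, but their lowest library was a control. These other genes were picked after their values were seen. Esrra, an orphan receptor of mitochondrial genes, was lower in all 3 transgenic kidneys by a small margin (-0.10 ± 0.07, SE).

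**Figure D5:**
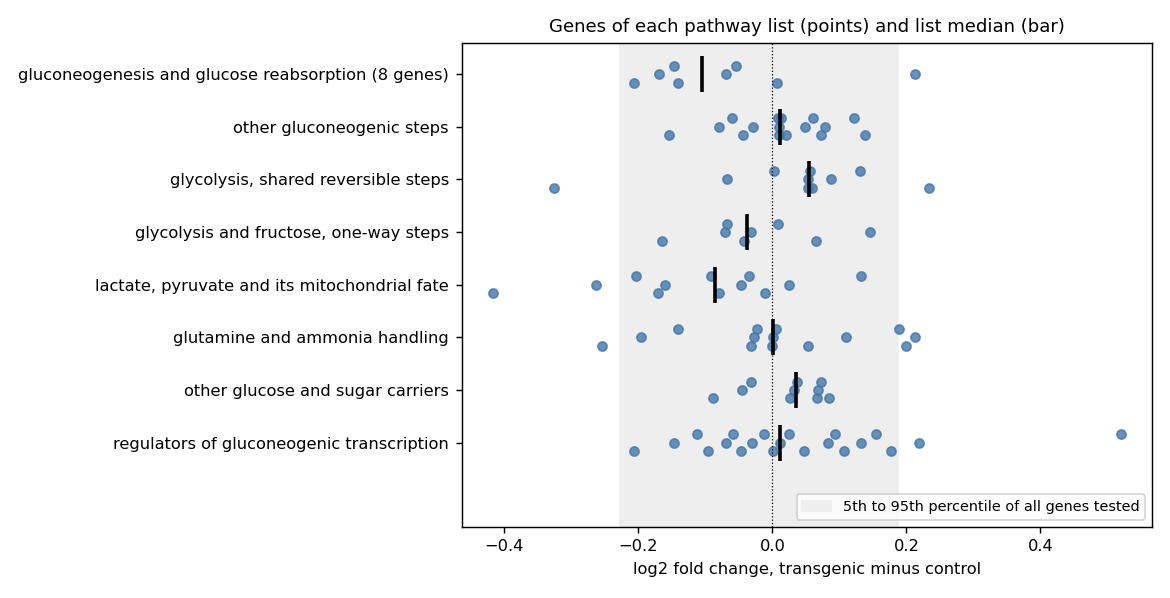
Log2 fold change, transgenic minus control (x axis), of every tested gene (points) in the 8 genes described and the 7 further pathway lists (y axis); black bars are list medians and the grey band runs from the 5th to the 95th percentile of all genes, -0.23 to 0.19. Medians lie between -0.11 and 0.06, and most points lie inside the band.

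Genes whose pattern over the 6 libraries was most like each member were ranked by Pearson r of log2 CPM over the 6968 other genes with a mean of at least 10 CPM. For Pck1 these were Fam102a (r = 0.988, rho 0.943), Kcnj15 (0.977, rho 0.943) and Atp6v0a4 (0.975, rho 0.886), and r was 0.985, 0.868 and 0.878 without transgenic kidneys 1 and 2. Fam102a ran in parallel over a narrower range, from 71.9 CPM in transgenic kidney 2 to 92.5 CPM in transgenic kidney 1. For G6pc they were Banp (0.970, rho 0.771), Sall2 (0.959, rho 0.714) and BC029722 (0.958, rho 0.657). Without transgenic kidneys 1 and 2 their r was -0.03, 0.15 and -0.01. It was 0.969, 0.966 and 0.954 without transgenic kidney 1 alone, and 0.665, 0.33 and 0.399 without transgenic kidney 2 alone. These relations thus rested more on transgenic kidney 2.

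For Slc2a2 they were Mrps34 (r = 0.995, rho 1.0), Insig1 (0.990, rho 0.943) and Cog6 (0.988, rho 0.943). For Slc5a2 they were D630023F18Rik, Lipa and Ifnar2 (0.989, 0.989 and 0.987, rho 1.0 each), and for Slc5a12 Arl5a (0.994, rho 1.0), Clint1 (0.985, rho 1.0) and Cacul1 (0.984, rho 0.943). For Fbp1 they were Topors, Aldh3a2 and Ugt3a2 (0.986, 0.985 and 0.985), for Pcx Alyref, Ahctf1 and Xbp1 (0.974, 0.965 and 0.962), and for Glud1 Ptbp1, Bag5 and Cyp51 (0.986, 0.958 and 0.956); rho lay between 0.829 and 1.0 for these 9. Without the 2 libraries farthest from the member's median, r lay between 0.773 and 1.0 for these 6 members. With 6 points and 6968 genes high values of r are common: between 5 and 49 genes passed 0.95 for each member.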

How the data were processed

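The authors deposited 1 table of 7373 genes, kept per the file headers where at least 2 of 6 samples had a value called NRPKM between 5.0 and 84233.281. All 8 genes met that limit in all 6 samples, so none passed through 1 group alone. Of 24 columns of per-sample values, 12 belong to these samples; the other 12 were not used. The columns used carry the tag Pre_IRI in their names. The deposited raw columns hold estimated counts, not normalized, and were rounded. The deposited normalized columns hold log2 values, equal to the log2 count after 1 factor per library and 1 baseline per gene (tested on the table), and served 1 alternative. Per the submitters' processing notes the build was mm10. The aligner, the counter and the strand setting were not given in the sources used here. Per the labels' protocols, kidneys were halved, frozen and extracted on columns, and libraries followed Illumina's standard procedure.

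Genes on X and Y were left out and edgeR 4.0.16 (R 4.3.3; limma 3.58.1 and DESeq2 1.42.0 for alternatives) was run with filterByExpr, TMM, group as the only term and the quasi-likelihood test, two-sided, Benjamini-Hochberg adjusted over 7194 genes. CPM use TMM library sizes; SE is the log2 fold change over the square root of F. The fit was tested on simulated data. No pair of libraries was a duplicate (chi-square per degree of freedom at least 23.3). Positions come from RefSeq GRCm38.p6, matched by gene ID for 7354 rows; all 8 genes were matched. Members, lists and the omission of X and Y were chosen with earlier results of these data known. From each list the rule names genes past the threshold, the 2 with the smallest p and the 2 with the highest mean CPM, and for each member the 3 genes with the highest Pearson r of log2 CPM (prior count 2). Some of the genes so picked are not reported here. Alternatives were X and Y genes included, DESeq2 size factors, no filter and a stricter one (at least 100 counts in every library), DESeq2, limma voom with sample weights, limma on the deposited log2 values, a replicate block, and each library left out. Other cell type markers looked up were summed: thick ascending limb markers (8 tested) ran from 3773 to 4424 CPM in controls and from 3598 to 3998 CPM in transgenic kidneys, distal convoluted tubule (4) from 863 to 944 and 780 to 971, principal cell (8) from 1078 to 1192 and 981 to 1134, intercalated cell (7) from 322 to 358 and 334 to 376, endothelium (5) from 305 to 396 and 300.3 to 311, macrophage (7) from 342 to 390.0 and 299 to 365, red blood cell (3) from 532 to 925 and 499 to 757, fat cell (3) from 89.6 to 294 and 109 to 166, and adrenal gland (1) from 4.49 to 5.67 and 6.48 to 7.79 CPM; their part in the results was not tested.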

Additional observations from a re-analysis of the deposited data

How the results depend on the processing

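No member and none of the 25 other genes that the rule picked from the lists passed an adjusted p of 0.05 in any of the 14 other settings run; the smallest was 0.376, that of Aldoc with limma voom. The count of called genes, 1 with edgeR (131 at an unadjusted p under 0.05), was 0 with X and Y genes included (112 at an unadjusted p under 0.05), 0 with limma on the authors' log2 values (133), 2 with DESeq2 (163), and 0 to 2 with 1 library left out: 0 without control 1 (100) or transgenic kidney 1 (47), 2 (115) or 3 (118), 1 without control 2 (597), and 2, Ren1 and Hba-a2, without control 3 (166). It was 1 with limma voom, where 634 had an unadjusted p under 0.05. The cause was not tested. Of 112 member values under other settings 9 changed sign, and of 350 values of the 25 other genes 28 did. With limma voom and sample weights the log2 fold change of Slc5a12 was -0.07, of Pcx 0.09, of Fbp1 -0.02, of Hnf4a 0.20, of Dld -0.20 and of Tkfc 0.084. In the same fit it was 0.0263 for Glud1, -0.0346 for Mdh1, -0.037 for Mdh2, -0.0292 for Gapdh, -0.0608 for Khk, -0.0742 for Ldhd, -0.0301 for Slc5a10 and 0.0557 for Prodh. Prodh, near 0 throughout, was 0.0020 with DESeq2 size factors, 0.0003 with the stricter filter, 0.0021 with DESeq2 and 0.0005 with the replicate block.

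With 1 library left out, log2 fold changes ran from -0.15 to 0.50 for Pck1, -0.35 to 0.0347 for G6pc, -0.13 to 0.0285 for Fbp1, -0.0393 to 0.0521 for Pcx, -0.26 to 0.022 for Slc2a2, -0.34 to 0.0227 for Slc5a2, -0.41 to -0.08 for Slc5a12 and -0.18 to -0.01 for Glud1. They ran from -0.0665 to 0.0508 for Mdh1, -0.0864 to 0.0696 for Mdh2, -0.0162 to 0.0554 for Khk, -0.0611 to 0.0335 for Ldhb, -0.0739 to 0.0787 for Ldhd, -0.0856 to 0.10 for Prodh, -0.13 to 0.0546 for Ogdh and -0.0551 to 0.0749 for Slc5a10. Whether replicate numbers in the titles pair the samples was not settled. Deviations of same-numbered libraries from their group means correlated at 0.002, -0.019 and 0.33, and control 1 correlated best with transgenic kidney 2 (0.43). Deviations from a mean of 3 libraries constrain each other, so these correlations cannot exclude a pairing. With the replicate block the count of called genes was 1 (176 at an unadjusted p under 0.05, edgeR). In that fit the log2 fold change of Pck1 was 0.12 (0.11 in the limma fit of deposited log2 values), that of Slc5a12 -0.22. The smallest count of a member in any library was 1622, that of Slc2a2 in transgenic kidney 1, so counting error is small beside the spread between libraries.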
